A study of Mus musculus with 42 samples.

Results

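HOXC13:C10.1 and HOXC13:C10.2 are chimeric Hox transcription factors (TFs) that differ in where HOXC13 ends and HOXC10 begins. Both carry the N-terminal part of HOXC13 and the homeodomain and C-terminus of HOXC10. HOXC13:C10.1 switches at the start of the homeodomain, whereas HOXC13:C10.2 switches further upstream and so also carries HOXC10's own version of a conserved stretch that precedes the homeodomain. The comparison asks how genomic binding differs when that stretch comes from HOXC13 or from HOXC10. The binding sites compared are the 10000 events of each chimera with the highest estimated ChIP read count on chromosomes 1 to 19 and X, 20000 in all, out of 99311 events called for HOXC13:C10.1 and 87315 for HOXC13:C10.2.

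Binding was measured by ChIP-seq at day 3 of motor neuron differentiation, with 2 libraries for each chimera. Mouse embryonic stem cells of the Ainv15 background were grown as embryoid bodies, patterned with retinoic acid and the hedgehog agonist SAG, and treated with doxycycline (Dox) from day 2 for 24 h. Each chimera carries an N-terminal Flag tag, was recovered with the same Flag antibody, and was expressed from a Dox-responsive promoter at the HPRT locus of its own cell line. The comparison lists are HOXC9, HOXC10 and HOXC13 at day 3 under the same patterning and induction, where 1 of 3 HOXC10 libraries came from a V5-tagged line and 1 of 2 HOXC13 libraries from an HA-tagged line recovered with other antibodies. The HOXC13 line was built from the human cDNA. Further lists are HOXC6, HOXC8, HOXA9, HOXD9, the cofactor MEIS and 2 chimeras with the HOXC13 homeodomain, all at day 3. The cofactor PBX was assayed at day 4, with Dox from day 2. The HOXA9 and HOXD9 lists each pool a Flag-tagged and an HA-tagged line. The MEIS lists came from V5-tagged HOXC6, HOXC9 and HOXC10 lines (iHoxc6, iHoxc9 and iHoxc10). The PBX lists came from Flag-tagged HOXC9 and HOXC10 lines. The cells also express their endogenous Hox genes, and no expression was measured in these libraries, so neither the cell type nor the amount of each chimera could be checked.

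Hox proteins are homeodomain TFs that assign position along the body axis. Posterior members bind A- and T-rich sites with a TTAT core, and HOX13 proteins also accept TTTAC. The TALE homeodomain proteins PBX and MEIS bind DNA together with many Hox proteins, and the PBX-Hox pair recognises composite sites such as TGATTTAT, in which a PBX half-site sits directly before the Hox half-site. In the spinal cord HOXC9 specifies thoracic and HOXC10 lumbar motor neurons, and HOX13 proteins act at the tail end of the axis.

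Each top site was placed in 1 of 3 classes by position. A site was both-top when the other chimera also had a top event within 100 bp. It was stronger in 1 chimera when the other chimera did have an event no more than 100 bp away, but none of its own top 10000. It was found in 1 chimera only when the other chimera had no event that close. The reference sequences below (mm10, plus strand) show the highest site of each class (both-top sites ordered by HOXC13:C10.1 reads), 50 bp to each side of the called point, with TTTAT and TTTAC or their reverse complements in capitals, so that the letters under the strongest shared and chimera-specific sites can be compared.
both-top, chr15:103014615-103014715, intron of Hoxc5: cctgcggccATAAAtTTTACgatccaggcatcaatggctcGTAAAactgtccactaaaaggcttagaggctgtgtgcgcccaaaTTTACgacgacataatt
stronger in HOXC13:C10.1, chr10:120679477-120679577, between genes, Msrb3 nearest: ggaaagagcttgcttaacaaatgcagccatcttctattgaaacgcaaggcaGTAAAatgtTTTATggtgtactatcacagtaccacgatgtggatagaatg
stronger in HOXC13:C10.2, chr1:78129374-78129474, intron of Pax3: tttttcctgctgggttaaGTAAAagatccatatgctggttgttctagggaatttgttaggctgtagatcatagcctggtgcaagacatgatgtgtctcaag
HOXC13:C10.1 only, chr2:116324099-116324199, between genes, Meis2 nearest: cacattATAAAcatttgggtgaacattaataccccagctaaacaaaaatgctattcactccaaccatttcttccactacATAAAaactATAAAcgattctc
HOXC13:C10.2 only, chr4:45728075-45728175, between genes, Aldh1b1 nearest: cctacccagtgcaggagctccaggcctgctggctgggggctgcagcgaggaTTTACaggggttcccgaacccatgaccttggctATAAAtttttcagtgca
The Hoxc5 window held 1 TTTAT and 3 TTTAC matches, and the Meis2 window 3 TTTAT and 0 TTTAC. The Pax3 window had 0 TTTAT and 1 TTTAC, so a posterior TTTAT was not present at every strong site.

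The chimeras occupied largely the same places with different strength. Of the top HOXC13:C10.1 sites, 9352 of 10000 (93.5%, 95% Wilson interval 93.0% to 94.0%) had a HOXC13:C10.2 event within 100 bp. In the other direction the count was 9740 of 10000 (97.4%, 97.1% to 97.7%). Over all events, without the cut at 10000, these shares were 58.4% and 65.4%. Fewer sites were top in both, 48.9% from the HOXC13:C10.1 side and 47.9% from the HOXC13:C10.2 side. From the HOXC13:C10.1 side 4892 sites were both-top, 4460 were stronger in HOXC13:C10.1 and 648 were found with HOXC13:C10.1 only. From the HOXC13:C10.2 side the counts were 4791, 4949 and 260. The 2 both-top counts differ because 1 event could lie within 100 bp of several events of the other list.

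Strength at a site is given as the caller's estimated ChIP reads in the pooled libraries. The highest HOXC13:C10.1 site had 15474.5 reads, and ranks 10000 and 10001 had 512.4 and 512.3. For HOXC13:C10.2 the highest had 24512.3, and the same ranks had 351.1 and 351.0. Near the distance limit, 486 top HOXC13:C10.1 sites had their nearest HOXC13:C10.2 event from 51 to 100 bp away and 136 just beyond 100 bp, up to 150 bp. The corresponding counts for top HOXC13:C10.2 sites were 393 and 66. Most matches were exact, with 7300 and 8036 top sites called at the same base in both lists. The caller placed events of both chimeras jointly, and how much this added to the overlap was not tested. The pooled lists give 1 value per chimera, so no replicate error exists for any share below, and the intervals cover counting error only, with neighbouring sites taken as independent.

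Depth and the caller's signal fraction, its estimate of the share of reads that came from binding, differed between libraries. The HOXC13:C10.1 libraries held 29.2 and 28.5 M reads with signal fractions of 0.335 and 0.527, and the HOXC13:C10.2 libraries 25.0 and 23.3 M with 0.32 and 0.392. Their lists were called against a control of 20.3 M reads, as were HOXC8, the reverse chimeras and MEIS, and the HOXC9, HOXC10 and HOXC13 lists against one of 20.6 M. The HOXC10 libraries had the lowest signal fractions of these factors (0.017, 0.041 and 0.161), and the HOXC10 list was the shortest, with 26873 events against 74085 for HOXC9 and 115879 for HOXC13. A share with HOXC10 events is therefore not comparable in level with a share with HOXC13 events, and comparisons below are between site classes within 1 list.

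At the 4892 both-top sites, reads of the nearest events of the 2 chimeras had a Pearson r of 0.372 on the log2 scale and a Spearman rho of 0.307 across sites, which share libraries and are not replicates. These sites were selected as top in both lists, which narrows the range of reads and can lower both coefficients. HOXC13:C10.1 reads were higher by a median of 0.515 log2 units before centring, and the ratios below are centred on that median. After centring, the interquartile range of the both-top sites was -0.603 to 0.649, 759 were more than 2-fold higher in HOXC13:C10.1 and 695 more than 2-fold higher in HOXC13:C10.2. Sites in the stronger classes were chosen by rank and so lean to their own side by construction. The median centred log2 ratio was 1.89 for sites stronger in HOXC13:C10.1, where the HOXC13:C10.2 event had a median rank of 23938. It was -1.75 for sites stronger in HOXC13:C10.2, with a median HOXC13:C10.1 rank of 22843. More than 4-fold differences were seen at 2048 of 4460 and 1908 of 4949 of these sites.

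**Figure D1:**
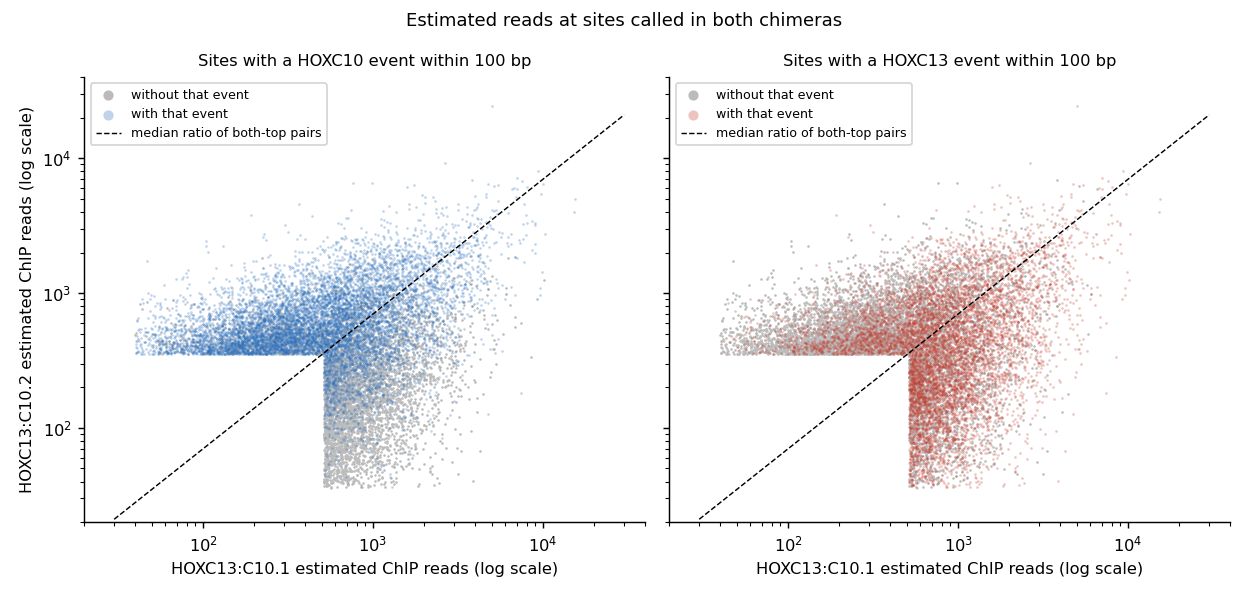
Estimated ChIP reads of HOXC13:C10.1 (x, log scale) and HOXC13:C10.2 (y, log scale) at top sites where both chimeras had an event within 100 bp, coloured by a HOXC10 event (left) or a HOXC13 event (right). The empty corner is where neither event was in its top 10000; sites above the dashed line of the median both-top ratio mostly have a HOXC10 event, and sites below it more often have a HOXC13 event.

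HOXC10 events separated the classes. HOXC10, the source of the homeodomain in both chimeras, had an event at 3964 of 4892 both-top sites (81.0%, 79.9% to 82.1%). At sites stronger in HOXC13:C10.2 the share was 86.8% (4297 of 4949), and at sites stronger in HOXC13:C10.1 it was 23.9% (1067 of 4460), a difference of -62.9 percentage points (95% Newcombe interval -64.4 to -61.3). At sites found in 1 chimera only the gap was wider. HOXC10 events lay at 25 of 648 HOXC13:C10.1-only sites (3.86%, 2.63% to 5.63%) and at 215 of 260 HOXC13:C10.2-only sites (82.7%, 77.6% to 86.8%), a difference of -78.8 points (-83.1 to -73.5), or -50.2 points with a limit of 50 bp in place of 100 bp. Over all events HOXC10 was present at 21.9% for HOXC13:C10.1 and 31.3% for HOXC13:C10.2. The HOXC13:C10.1-only share thus lay below this background of its own list and the HOXC13:C10.2-only share well above it. Among all top sites HOXC10 was present at 50.6% for HOXC13:C10.1 and 84.4% for HOXC13:C10.2. Against these, the HOXC13:C10.2-only share was near that of its top list, and the HOXC13:C10.1-only share was far below.

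HOXC13, the source of the N-terminus in both chimeras, went the other way. Its events lay at 347 of 648 HOXC13:C10.1-only sites (53.5%, 49.7% to 57.4%) and at 28 of 260 HOXC13:C10.2-only sites (10.8%, 7.56% to 15.1%), a difference of 42.8 points (37.0 to 47.8). HOXC13 was at 65.2% of sites stronger in HOXC13:C10.1 and 31.7% of those stronger in HOXC13:C10.2, which is 33.5 points apart (31.5 to 35.3). The both-top share was 67.9%, close to that of sites stronger in HOXC13:C10.1. Over all events HOXC13 was present at 37.5% for HOXC13:C10.1 and 28.4% for HOXC13:C10.2. Among all top sites it was present at 65.8% and 47.7%. The HOXC13:C10.1-only share thus lay above all events of its list but below its top list. The HOXC13:C10.2-only share lay below both. The HOXC13:C10.1-only minus both-top difference was -14.4 points (-18.4 to -10.3). The HOXC13 events at HOXC13:C10.1-only sites also ranked higher, with a median rank of 16610 in the HOXC13 list against 47710 at HOXC13:C10.2-only sites.

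Sites held by 1 parent without the other showed the split most plainly. HOXC13 without HOXC10 was found at 331 of 648 HOXC13:C10.1-only sites (51.1%) and at 3 of 260 HOXC13:C10.2-only sites (1.15%). HOXC10 without HOXC13 was found at 9 of 648 (1.39%) and 190 of 260 (73.1%). Over all events of HOXC13:C10.1 and HOXC13:C10.2 these shares were 28.4% and 17.9% for HOXC13 without HOXC10, and 12.8% and 20.8% for HOXC10 without HOXC13. In the stronger classes HOXC13 without HOXC10 accounted for 48.7% of sites stronger in HOXC13:C10.1 and 4.06% of those stronger in HOXC13:C10.2.

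HOXC9, the thoracic factor, was near most sites of every class. Its events lay at 98.6% of both-top sites, 92.8% of sites stronger in HOXC13:C10.1 and 96.6% of sites stronger in HOXC13:C10.2. The HOXC13:C10.1-only sites were lowest, with 431 of 648 (66.5%, 62.8% to 70.0%) against 231 of 260 (88.8%, 84.4% to 92.1%) for HOXC13:C10.2 only, a difference of -22.3 points (-27.3 to -16.7), or -14.1 points with the top 5000 sites of each chimera. Over all events the HOXC9 shares were 55.6% and 64.0%. Among all top sites they were 94.0% and 97.4%, so both 1-chimera shares lay below those of their own top lists. None of HOXC9, HOXC10 and HOXC13 had an event at 131 HOXC13:C10.1-only sites (20.2%) and at 12 HOXC13:C10.2-only sites (4.62%), both below the 30.0% and 26.8% of all events. Both were above the 3.54% and 1.10% of all top sites of their chimeras, and above the 0.715% of both-top sites.

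**Figure D2:**
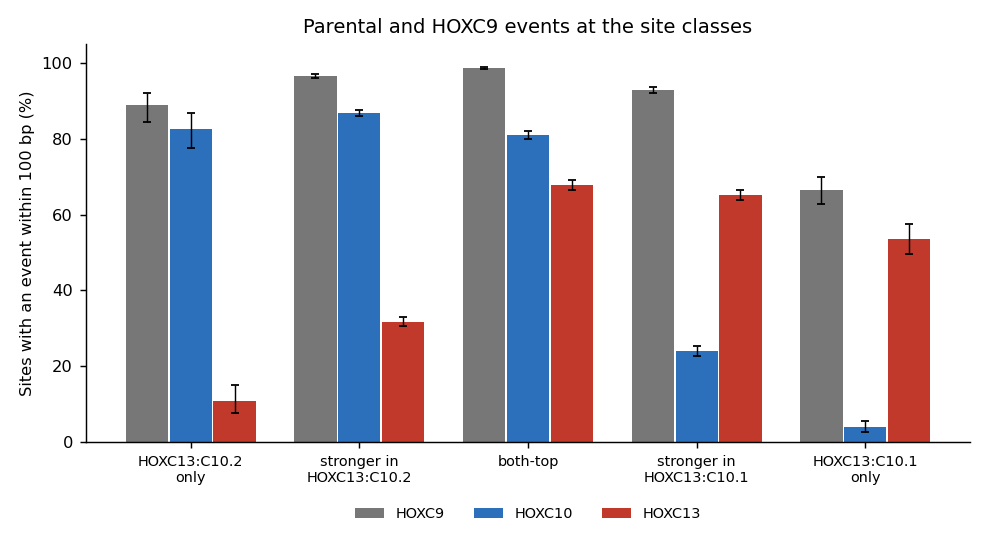
Percent of sites in each class with a HOXC9, HOXC10 or HOXC13 event within 100 bp; bars start at 0 and error bars are 95% Wilson intervals for counting error. HOXC10 is at 82.7%, 86.8% and 81.0% in the 3 classes on the left and at 23.9% and 3.86% in the last 2, while HOXC13 is at 10.8% on the far left and highest, 67.9%, at both-top sites.

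The shares followed the strength ratio across the sites top in at least 1 chimera that had an event of the other within 100 bp. HOXC10 events were at 91.2% of the 1978 sites with a centred log2 ratio below -2, at 77.9% of the 2497 sites from -0.5 to 0.5, and at 14.7% of the 2178 sites above 2. HOXC13 events were at 24.7%, 63.1% and 68.5% of the same sites. HOXC9 events stayed between 91.2% and 97.7% in all 7 ratio bins. The HOXC13 share changed little above a ratio of 0.5, with 68.1% from 0.5 to 1 and 69.4% from 1 to 2, whereas HOXC10 went from 59.0% to 38.7% over those bins.

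The split was present at high and low ranks. Among the sites stronger in 1 chimera, the HOXC10 share at own ranks 1 to 2000 was 94 of 494 sites for HOXC13:C10.1 and 97.2% (389 of 400) for HOXC13:C10.2. At own ranks 8001 to 10000 it was 26.1% (296 of 1132) and 81.2% (1077 of 1327). The HOXC13 shares were 74.5% and 28.7% at ranks 1 to 2000 and 59.8% and 31.1% at ranks 8001 to 10000. Restricting the 1-chimera sites to those with no event of the other list within 1 kb left 410 of 648 and 134 of 260 sites. HOXC10 events lay at 2.44% and 91.8% of these, and HOXC13 events at 57.8% and 11.2%.

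Events of HOXD9, HOXA9, HOXC8 and HOXC6 were likewise rarer at HOXC13:C10.1-only than at HOXC13:C10.2-only sites. HOXD9 events were at 5.56% of HOXC13:C10.1-only and 81.5% of HOXC13:C10.2-only sites, a difference of -76.0 points (-80.5 to -70.4). HOXA9 events were at 20.7% and 88.1%, HOXC8 events at 15.7% and 52.3%, and HOXC6 events at 5.25% and 25.4%. At HOXC13:C10.1-only sites each of these was below its share among all HOXC13:C10.1 events, which was 29.7%, 40.9%, 29.3% and 14.5% in the same order. No event of any of the 9 other HOX lists, reverse chimeras included, was found at 17.7% of HOXC13:C10.1-only and 1.54% of HOXC13:C10.2-only sites, both below the 23.4% and 15.4% of all events. Both were above the 2.56% and 0.260% of all top sites of their chimeras, and above the 0.184% of both-top sites. HOXC10:C13.1 and HOXC10:C13.2, the reverse chimeras with the HOXC13 homeodomain, were at 8.80% against 6.54% (difference 2.26 points, -1.91 to 5.69) and at 14.8% against 4.62% (interval of the difference 6.06 to 13.7 points). The stronger classes did not follow this, with 19.8% against 31.4% for HOXC10:C13.1 (-11.6 points, -13.4 to -9.87) and 32.2% against 31.8% for HOXC10:C13.2 (0.436 points, -1.45 to 2.32). Over all events the shares were 14.2% and 14.5% for HOXC10:C13.1 and 18.7% and 17.5% for HOXC10:C13.2.

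MEIS events, which mark sites bound by a TALE cofactor of Hox proteins, were nearly absent from HOXC13:C10.1-only sites. MEIS in iHoxc9 cells, the longest of the 3 MEIS lists with 22749 events, was at 13 of 648 (2.01%, 1.18% to 3.40%) against 196 of 260 HOXC13:C10.2-only sites (75.4%, 69.8% to 80.2%). The both-top share was 53.4%, and the shares at sites stronger in HOXC13:C10.1 and in HOXC13:C10.2 were 10.6% and 61.0%. MEIS in iHoxc10 cells gave 0.463% and 40.8% at the 1-chimera sites, and MEIS in iHoxc6 cells 0.463% and 16.5%. Over all events of HOXC13:C10.1 and HOXC13:C10.2 the shares were 12.6% and 20.5% for MEIS in iHoxc9, 7.30% and 11.1% in iHoxc10, and 5.76% and 7.78% in iHoxc6. Each MEIS list came from 1 library in cells that expressed another Hox protein, so MEIS binding in the chimera lines themselves was not measured. The day 4 PBX lists, with 1165 and 848 events, met at most 0.480% of the sites of any class. PBX in iHoxc9 was at 0 of 4460 sites stronger in HOXC13:C10.1 and 10 of 4949 stronger in HOXC13:C10.2 (-0.202 points, -0.372 to -0.0759), and PBX in iHoxc10 at 0 and 7 (-0.141 points, -0.292 to -0.0287). At the 1-chimera sites the intervals of both PBX differences included 0.

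**Figure D3:**
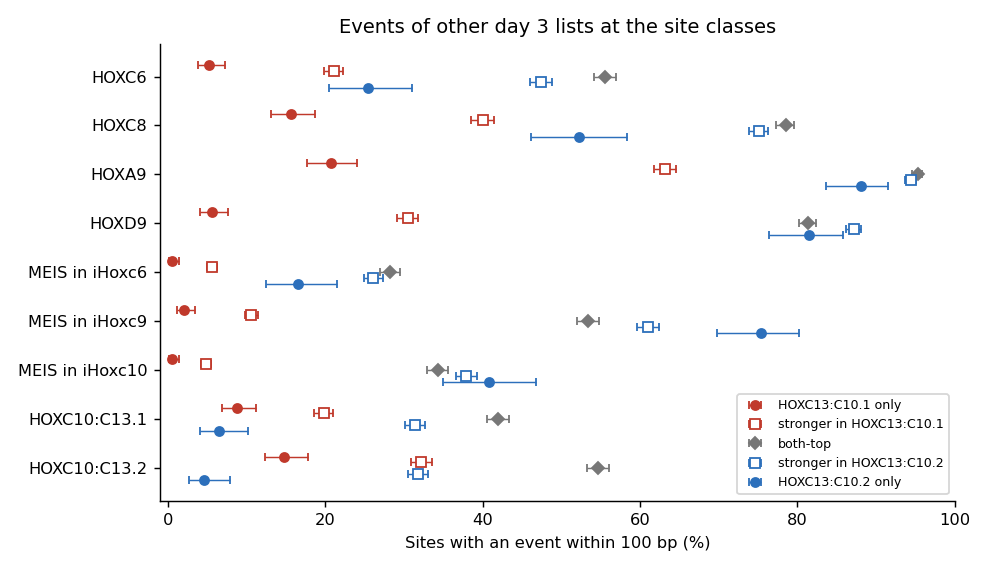
Percent of sites with an event of another HOX or MEIS list within 100 bp (x) for the 5 site classes, with 95% Wilson intervals for counting error. HOXC13:C10.1-only sites (filled red circles) lie at or below 20.7% for every list, while HOXC13:C10.2-only sites (filled blue circles) reach 75.4% for MEIS in iHoxc9 and 88.1% for HOXA9.

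TTTAT was more frequent than TTTAC in every class. It was found on either strand within 50 bp at 469 of 648 HOXC13:C10.1-only sites (72.4%) and at 127 of 260 HOXC13:C10.2-only sites (48.8%), a difference of 23.5 points (16.5 to 30.4). At both-top sites it was 68.3%, and at sites stronger in HOXC13:C10.1 and HOXC13:C10.2 it was 72.0% and 57.4%. In windows 1 kb to each side the shares were 39.5% for HOXC13:C10.1-only and 31.3% for HOXC13:C10.2-only sites, and with these subtracted the difference was 15.4 points. Among all events of the chimeras TTTAT was at 65.2% for HOXC13:C10.1 and 59.8% for HOXC13:C10.2. TTTAC, the alternative HOX13 core, differed less, with 34.1% and 25.4% (8.72 points, 2.07 to 14.9) over flanking shares of 20.8% and 18.7% and shares of all events of 28.7% and 26.3%. With the top 5000 sites the TTTAC difference was 1.90 points (-13.7 to 16.0). TTTAC without TTTAT was at 9.88% of HOXC13:C10.1-only and 16.2% of HOXC13:C10.2-only sites. The median GC content of these windows was 37.6% and 44.6%.

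The composite and cofactor motifs were on the side of HOXC13:C10.2. TGATTTAT, which contains TTTAT, was at 5 of 648 HOXC13:C10.1-only sites (0.772%) and 27 of 260 HOXC13:C10.2-only sites (10.4%), a difference of -9.61 points (-13.9 to -6.30). The flanking shares were 0.617% and 1.73%, so the HOXC13:C10.1-only share was near that of its surroundings, and 4.45% and 6.92% of all events held it. TGACAG, the MEIS core, was at 6.64% and 14.6% (-7.98 points, -13.1 to -3.62), over flanking shares of 5.94% and 6.35%. TAAT, the core of central HOX factors, was at 79.2% and 58.8%, over flanking shares of 55.2% and 50.8% and shares of all events of 76.4% and 71.9%.

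Short sequences at the sites differed between the chimeras, including the bases before TTTA. Among all 2080 6-mers counted with their reverse complements, those with the largest difference in share between the stronger classes were examined, a choice made after the values were seen. TTTTAT led toward HOXC13:C10.1, with 43.8% of sites stronger in HOXC13:C10.1 against 20.6% of sites stronger in HOXC13:C10.2. ATTGAT led toward HOXC13:C10.2, with 7.83% against 24.5%, followed by GATTTA with 12.2% against 27.3%. The 1-chimera sites had no part in the choice. There TTTTAT was at 44.4% of HOXC13:C10.1-only and 5.77% of HOXC13:C10.2-only sites, a difference of 38.7 points (33.5 to 43.1), over flanking shares of 18.7% and 14.6%. GATTTA was at 5.71% and 35.0% (-29.3 points, -35.5 to -23.4), over 5.40% and 6.73% in the flanks. ATTGAT was at 7.25% and 12.3% (-5.05 points, -9.93 to -0.928), over 6.79% and 5.58% in the flanks, and both shares were below those of all events, 13041 of 99228 for HOXC13:C10.1 and 18.5% for HOXC13:C10.2. TTTTAT and GATTTA share the core TTTA and differ in the bases before it, whereas ATTGAT holds no TTTA on either strand.

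The same 6-mers differed in share between the lists of the parental proteins HOXC13 and HOXC10, with HOXC9 given beside them. Among the top 10000 events of each list, TTTTAT was at 47.8% for HOXC13, 32.8% for HOXC9 and 21.1% for HOXC10. GATTTA was at 13.4%, 21.1% and 22.5%, and ATTGAT at 6.51%, 15.4% and 22.6%. TTTATG, next after TTTTAT toward HOXC13:C10.1 in the stronger classes, was at 32.9%, 33.0% and 23.7%, so it did not separate HOXC13 from HOXC9. MEIS in iHoxc9 had the lowest TTTTAT share of the lists examined, 11.3%, and the highest GATTTA share, 33.6%. Within the HOXC13:C10.1-only sites, TTTTAT was at 56.2% of the 347 with a HOXC13 event and at 30.9% of the 301 without.

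**Figure D4:**
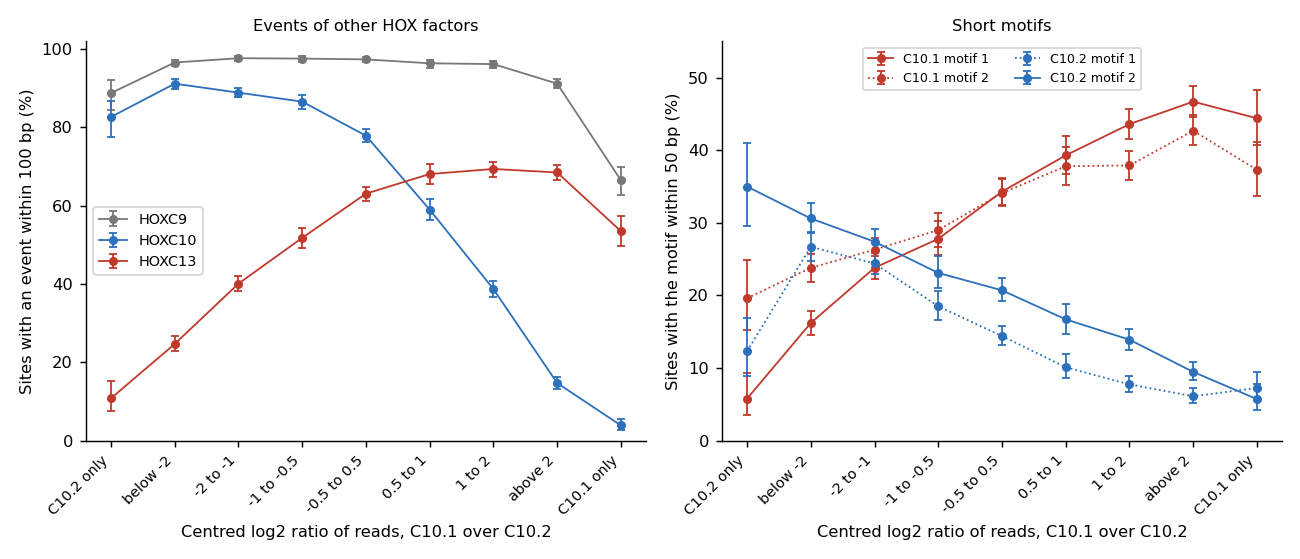
Left, percent of sites with an event of HOXC9, HOXC10 or HOXC13 within 100 bp; right, percent with each of 4 6-mers within 50 bp, where C10.1 motifs 1 and 2 are TTTTAT and TTTATG and C10.2 motifs 1 and 2 are ATTGAT and GATTTA; sites are ordered by bins of the centred log2 read ratio with the 1-chimera sites at the ends, and error bars are 95% Wilson intervals. HOXC10 falls from 91.2% to 14.7% and GATTTA from 30.6% to 9.46% over the 7 ratio bins, while TTTTAT rises from 16.2% to 46.7%. The 6-mers were chosen for their difference between the stronger classes, and those sites are in these bins. Their trend over the bins thus follows from the choice, and only the 1-chimera ends had no part in it.

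Intron and intergenic shares differed little between classes, while sites on the HOXC13:C10.2 side were more often within 10 kb of a start site. Most sites were intergenic or intronic in every class, with 54.3% and 44.1% of HOXC13:C10.1-only and 51.9% and 46.2% of HOXC13:C10.2-only sites. Sites within 1 kb of a protein-coding start site were 5 of 648 (0.772%) and 8 of 260 (3.08%), a difference of -2.31 points (-5.22 to -0.482) that rests on 13 sites and turned to 0.568 points (-6.72 to 3.15) with the top 5000. Both-top sites had 1.80%, and all events 2.47% for HOXC13:C10.1 and 3.15% for HOXC13:C10.2, so the HOXC13:C10.2-only share was near its background and the HOXC13:C10.1-only share below. Within 10 kb of a protein-coding start site lay 11.3% of HOXC13:C10.1-only and 16.9% of HOXC13:C10.2-only sites (-5.66 points, -11.2 to -0.794). In the stronger classes the shares were 11.9% and 14.9% (-2.99 points, -4.36 to -1.61), and over all events 14.8% and 16.2%. The median distance to such a start site was 80.4 kb for HOXC13:C10.1-only, 75.0 kb for HOXC13:C10.2-only and 79.7 kb for both-top sites. For sites stronger in HOXC13:C10.1 and in HOXC13:C10.2 it was 81.6 kb and 68.6 kb. Chromosome X held 2.93% of HOXC13:C10.1-only, 0.769% of HOXC13:C10.2-only and 1.08% of both-top sites. Over all events it held 2.13% for HOXC13:C10.1 and 1.81% for HOXC13:C10.2. The HOXC13:C10.1-only and HOXC13:C10.2-only shares rest on 19 and 2 sites. Of the 19, 4 lay within 1 kb of each other at Mospd2 and 3 were assigned to 1700020N15Rik. With counts this small and clustered, no contrast between the chimeras is drawn from them. Sites of the same class were sometimes neighbours, with 111 of 648 HOXC13:C10.1-only sites within 10 kb of another and 26 of 260 for HOXC13:C10.2.

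The 5 highest both-top sites included 2 at Hox genes. The first, at chr15:103014665 in an intron of Hoxc5, had 15474.5 reads with HOXC13:C10.1 and 4984.9 with HOXC13:C10.2, and events of HOXC9, HOXC10 and HOXC13. An intron of Ntm, which encodes a neuronal adhesion protein, had 15272.9 and 3974.1 reads. An intron of Spata17 had 10252.3 and 2755.7 reads. The site nearest Hoxb4, an anterior Hox gene, had 10044.1 and 6450.9 reads, which after centring is a log2 ratio of 0.124. The site nearest Basp1, a gene of growth cone membranes whose start site is 984 kb away, had 10066.8 and 1247.4 reads and events of HOXC9 and HOXC13 without HOXC10. These both-top sites are ordered by HOXC13:C10.1 reads, so their ratios lean to that side.

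Of the 5 highest sites stronger in HOXC13:C10.1, 4 are described, so no count over all 5 is given. The site nearest Msrb3, a methionine sulfoxide reductase gene, had 8438.8 reads against 333.9 with HOXC13:C10.2, a centred log2 ratio of 4.14. The site nearest Plcl1, a phospholipase C-like gene, had 5261.1 and 299.4 reads. An intron of Dscaml1, a neuronal adhesion gene, had 4881.4 and 239.1 reads. These 3 sites and the intronic site in Zfp407 had HOXC9 and HOXC13 events and no HOXC10 event.

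The 5 highest sites stronger in HOXC13:C10.2 all had HOXC10 events. An intron of Pax3, which encodes a TF of dorsal neural progenitors, had 4601.8 reads with HOXC13:C10.2 and 367.2 with HOXC13:C10.1, a centred log2 ratio of -4.16. HOXC13 had an event at 3 of the 5 sites, those of Epha4, Gas1 and Mdm2, and none at the Pax3 and Ror2 sites. The site nearest Epha4, a guidance receptor of limb motor axons, had 3769.3 and 190.8 reads. An intron of Ror2, a Wnt receptor gene, had 3745.2 and 440.2 reads and a TGATTTAT. The site nearest Gas1, a hedgehog co-receptor gene, had 3175.2 and 303.5 reads, and an intron of Mdm2, which encodes the ubiquitin ligase of p53, had 2825.7 and 316.4. MEIS in iHoxc9 had an event at 4 of these 5 sites, the Gas1 site being without.

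The highest 1-chimera sites had fewer reads than the highest shared ones. For HOXC13:C10.1 only they were nearest Meis2 (2766.2 reads), a HOX cofactor gene, Tmprss15 (2568.8), the limb TF gene Sp8 (2538.1), the methyltransferase gene Smyd3 (2483.1) and the growth factor gene Pdgfc (2464.9). All 5 had a HOXC9 event and none had a HOXC10 or MEIS in iHoxc9 event, and 4 had a HOXC13 event, the Meis2 site being without. For HOXC13:C10.2 only they were nearest the aldehyde dehydrogenase gene Aldh1b1 (1513.1 reads), the kinase gene Hunk (1119.5), Nme1 (1114.4), Tent4a (1089.3) and the semaphorin receptor gene Nrp2 (1047.0). Of these, all but the Tent4a site had HOXC9, HOXC10 and MEIS in iHoxc9 events, and none had a HOXC13 event. HOXA9 and HOXD9 had events at all 5.

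Sites were assigned to the nearest protein-coding start site, which by construction gives genes with wide neighbourhoods more sites. Of 21646 such genes, 17.0% had 1 or more top HOXC13:C10.1 sites and 16.7% 1 or more top HOXC13:C10.2 sites. Both-top sites were assigned to 10.3%, sites stronger in HOXC13:C10.1 to 11.3% and sites stronger in HOXC13:C10.2 to 11.7% of genes. HOXC13:C10.1-only sites were assigned to 532 genes (2.46%) and HOXC13:C10.2-only sites to 238 (1.10%), with 37 genes in common, which is 6.95% of the former and 15.5% of the latter. Of the 276 genes of the neural and axial lists, 56.9% had a top HOXC13:C10.1 and 60.9% a top HOXC13:C10.2 site, and 11.2% and 6.88% had 1-chimera sites of HOXC13:C10.1 and HOXC13:C10.2.

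The number of top sites in a gene group is given for both chimeras as a count, with no test. Among the 18 Slit, Robo and netrin genes, which guide axons at the midline, 14 had top HOXC13:C10.1 and 13 top HOXC13:C10.2 sites, but the sites numbered 76 and 107. Robo2 alone held 19 and 42, of which 11 were both-top, 8 stronger in HOXC13:C10.1 and 28 stronger in HOXC13:C10.2, and 38 of its 42 HOXC13:C10.2 sites had a HOXC10 event. The netrin receptor gene Dcc held 3 HOXC13:C10.1-only sites. The 13 Onecut, Ebf and Irx genes, TFs of early neurons and ventral progenitors, held 70 and 100 sites, with 9 and 17 at Ebf3 and 15 of each at Irx3. Among the Type II cadherins, which sort motor pools, the list totals were 54 and 55, while Cdh11 held 4 and 11 and Cdh6 12 and 11.

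In other groups the HOXC13:C10.1 count was the higher by varying amounts. The 11 teneurin and latrophilin list genes, synaptic adhesion proteins and their ligands, held 108 HOXC13:C10.1 and 83 HOXC13:C10.2 top sites, with 23 and 18 at Flrt2. The 13 sonic hedgehog pathway genes held 36 and 24, and Gas1 contributed 12 and 11. The 16 caudal axis genes held 21 and 16, with 9 and 5 at Wnt5a, a ligand of axis elongation, which makes up most of that gap. The HOX cofactor genes held nearly equal counts, 66 and 63 sites with 23 stronger in each chimera, 24 and 18 at Meis1 and 17 and 13 at Meis2, and 5 HOXC13:C10.1-only sites against 0 HOXC13:C10.2-only sites.

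Guidance receptor and motor neuron genes included opposite cases. Within the Eph receptors and ephrins, Efnb2, a membrane-bound ligand, held 22 HOXC13:C10.1 and 11 HOXC13:C10.2 sites, whereas the receptor gene Epha5 held 2 and 11 and Epha4 17 and 19. Among the semaphorin and plexin genes, Nrp1 held 12 of each and Nrp2 8 and 14. Of the motor neuron identity genes, Nkx6-1, a TF of motor neuron progenitors, held 26 and 19, and Isl2, a LIM TF of postmitotic motor neurons, 3 and 1. Lhx1, a LIM TF of motor neurons that innervate the dorsal limb, held 0 top HOXC13:C10.1 sites and 4 top HOXC13:C10.2 sites, with 396.5, 584.0, 1000.4 and 443.0 reads, and MEIS in iHoxc9 had an event at each of the 4. In the motor column list Nr2f1, an orphan nuclear receptor gene, held 33 and 31, the most both-top sites of any list gene named (20), and Gfra1, a GDNF co-receptor gene, 6 and 8. For the retinoic acid pathway the totals were 40 and 48, with 10 and 18 at the receptor gene Rarb, 7 and 7 at the degrading enzyme gene Cyp26b1 and 6 and 3 at Dhrs3. Among the Notch genes Dll1 held 4 and 6 and Jag1 4 and 5. Of the zinc finger homeobox and teashirt TF genes, Tshz1 held 9 and 15 sites, Zfhx3 10 and 15, and Tshz2 5 and 3. Sema6a, a semaphorin gene, held 3 and 1, Adgrl2, a latrophilin gene, 10 and 8, and Gata3, a TF gene of ventral interneurons, 4 and 2.

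The Hox clusters themselves were bound by both chimeras. The HoxA genes held 14 HOXC13:C10.1 and 20 HOXC13:C10.2 top sites, the HoxB genes 16 and 14, the HoxC genes 22 and 16 and the HoxD genes 9 and 12. Hoxa5 had 5 sites of each chimera, and Hoxb3 6 and 5. Hoxc4 had 11 sites of each chimera, 8 of them both-top. Hoxc8, a brachial-level gene deeper in the cluster, had 7 HOXC13:C10.1 sites and 1 HOXC13:C10.2 site. The site shared there, at chr15:102998138, had 3918.4 and 2279.5 reads and a HOXC10 event. The other 6 lay at 102992964, 102992983, 102996125, 102996213, 102996725 and 102996748 with 2323.9, 1450.8, 896.4, 531.8, 1438.6 and 1092.4 HOXC13:C10.1 reads. The 4 with a HOXC13:C10.2 partner had 210.1 or 86.5 HOXC13:C10.2 reads there, and all 6 had a HOXC13 event and no HOXC10 event. Several of the 6 lie close together and may share reads of 1 peak. Hoxd9 had 2 HOXC13:C10.1 sites, with 1621.7 and 1191.1 reads, and no top HOXC13:C10.2 site, and both again had HOXC13 without HOXC10. Hoxd3, nearer the other end of its cluster, had 5 HOXC13:C10.1 and 10 HOXC13:C10.2 sites, and all of them had a HOXC10 event.

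**Figure D5:**
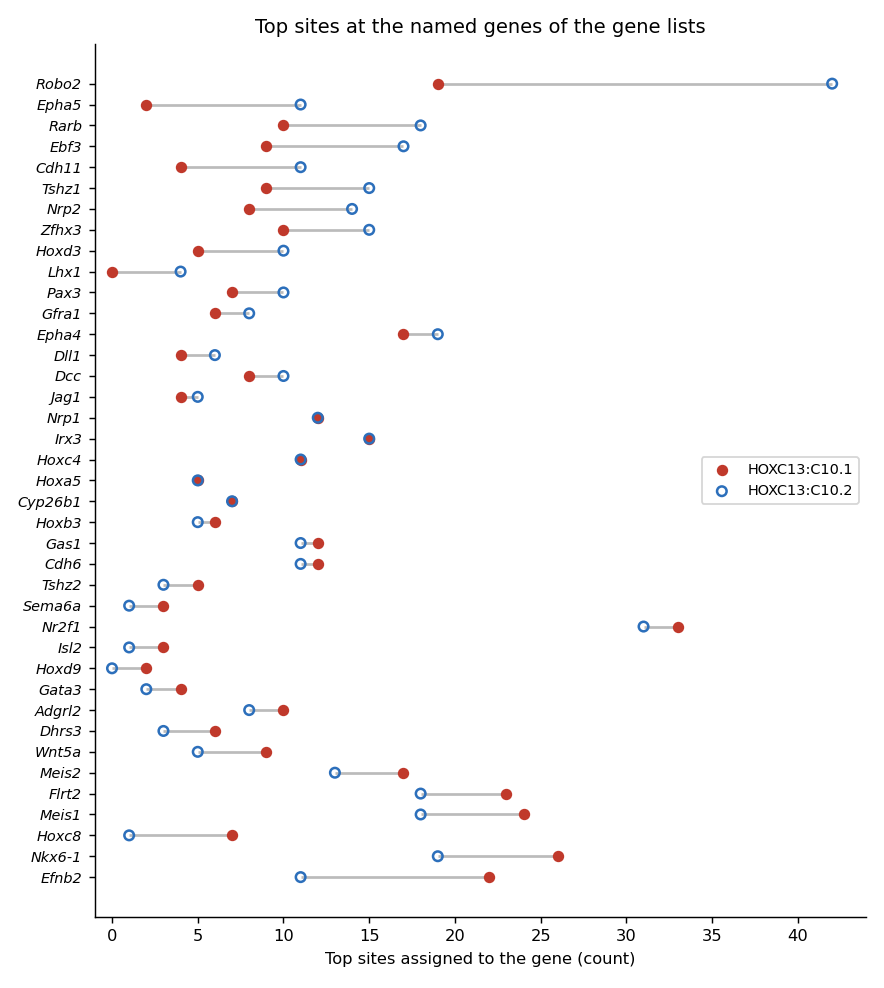
Number of top sites of HOXC13:C10.1 (filled) and HOXC13:C10.2 (open) assigned to each of 39 genes that hold the most both-top or 1-chimera sites of their list, ordered by the difference. HOXC13:C10.1 has more at 18 genes, HOXC13:C10.2 at 16, and 5 are equal; Robo2 is at 19 and 42 and Efnb2 at 22 and 11.

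Over all protein-coding genes, the most HOXC13:C10.1-only sites at 1 gene were 4. Grm8, a metabotropic glutamate receptor gene, Map3k7, a kinase gene, Mospd2 and the adhesion gene Opcml each held 4 HOXC13:C10.1-only sites and 0 HOXC13:C10.2-only sites, and 1700020N15Rik held 3, as did Dcc, Meis2, Cntn5 and Tmprss15. The 4 at Mospd2 fell within 1 kb of each other on chromosome X, at 164878129, 164878299, 164878492 and 164878598, with 619.0, 2017.5, 771.4 and 741.9 reads. No gene held more than 2 HOXC13:C10.2-only sites. Among those named, Arglu1, the cadherin gene Cdh2, the contactin gene Cntn5, Robo2, 1190002N15Rik and C530008M17Rik each held 2. Cntn5 held 3 HOXC13:C10.1-only sites as well, so both kinds occurred at 1 gene.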

How the data were processed

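ChIP-seq was performed at day 3 in 2 libraries per chimera, labelled as separate samples. The authors aligned reads to mm10 with Bowtie 1.0.1, and Picard 2.8.2 is named in the submitters' processing notes. Events were called with MultiGPS jointly over the chimeras and pooled per condition. The deposited lists give each event's position, its estimated count of ChIP reads (an expected count), its log2 fold over control and its log2 q-value, a deposited score that reaches minus infinity. Further columns hold the authors' edgeR 3.22.5 comparisons between conditions and were not used. Position tracks, day 4 HOX lists and lists from unpatterned embryoid bodies were not used here.

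Events on chromosomes 1 to 19 and X were ranked by estimated reads, with ties broken by q-value and then position (Python 3.11.15, numpy 2.4.6, pandas 2.3.3, scipy 1.17.1). Events of 16 lists were matched within 100 bp. All deposited sequences of both chimera lists were found at their events on GRCm38, whose RefSeq genome supplied the motif windows. Start sites are those of protein-coding transcripts in GENCODE mouse release 21. Shares carry 95% Wilson and differences 95% Newcombe intervals, and no test between conditions was run, since the columns used are pooled over libraries. The functions were tested on simulated data.

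The named genes are the nearest genes of the 5 highest sites per class, the 5 genes with the most sites found in 1 chimera only for each chimera, and the gene of each list with the most both-top or 1-chimera sites. The gene of 1 of these sites, and the site, are not reported here. Sites, classes and gene lists were chosen with earlier results of these data known. The alternatives were ranking, list length, distance, equal list lengths, a stricter q-value, motif window, flanking background and start site definitions.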

Additional observations from a re-analysis of the deposited data

How the results depend on the processing

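Of 64 values recomputed for 8 results under 12 alternative settings, 40 stayed within the interval of the value reported, 23 moved outside it and 1 changed sign. The share of top HOXC13:C10.1 sites with a HOXC13:C10.2 event was 96.5% with the top 5000, 88.7% with the top 20000, 88.7% within 50 bp, 95.2% within 200 bp and 87.1% with a q-value under 1e-10. For HOXC13:C10.2 the shares under these settings were 99.0%, 93.5%, 93.5%, 98.3% and 94.1%, and 96.8% with lists of equal length. The HOXC10 difference between HOXC13:C10.1-only and HOXC13:C10.2-only sites was -64.9 points with the top 20000, -50.2 within 50 bp, -89.5 within 200 bp and -66.2 with the stricter q-value. The HOXC13 difference was 32.3 points within 50 bp and 33.0 with equal lengths. The HOXC9 difference was -14.1 points with the top 5000, -14.9 within 50 bp and -27.9 with the stricter q-value. The TTTAT difference was 14.5 points within 100 bp and 15.4 after subtraction of the flanking share, and the TTTAC difference was 1.90 points with the top 5000, where the interval (-13.7 to 16.0) includes 0. The promoter difference reversed to 0.568 points with the top 5000 (-6.72 to 3.15), where 176 and 49 sites remained. The causes were not tested, beyond the smaller number of sites in shorter or stricter lists. No paired analysis was possible because the lists are pooled over libraries, and for the same reason no library could be left out. Only sites that passed the caller are listed, so a site found in 1 chimera may hold reads of the other below its threshold.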
